A study of Mus musculus with 4 samples.

Results

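The 42 genes described here encode nucleolar ribosome assembly factors, taken by name from a list of ribosome biogenesis genes, and all 42 were found among the 49997 gene rows of each count table. They cover scaffold proteins and chaperones of the nucleolus, the cores of the box C/D and box H/ACA small nucleolar ribonucleoproteins, factors of the small and the large subunit, and subunits of RNA polymerase I. RNA was measured in the wild-type mouse line iMOP, which is immortalized and derives from progenitors of the inner ear, in 2 groups of 2 libraries. The libraries named proliferating 1 and proliferating 2 came from cells in DMEM/F12 with N21 supplement, bFGF (20 ng/ml), a growth factor that keeps these progenitors dividing, and the antibiotic carbenicillin (25 µg/ml). The libraries named neuron 1 and neuron 2 came from cells in Neurobasal medium with N21 supplement, L-glutamine (2 mM) and K03861 (1 µM), which inhibits CDK2, a kinase that drives the cell cycle. The design text states that proliferating cells and neurons derived from them were compared. All libraries come from 1 cell line, and nothing in the labels says that same-group libraries were separate cultures, so p-values measure only the spread between these samples.

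Ribosomes are built in the nucleolus. RNA polymerase I transcribes a long precursor RNA there. Small nucleolar ribonucleoproteins modify that precursor at sites chosen by their guide RNAs, box C/D particles by methylation and box H/ACA particles by pseudouridylation. A large complex, the small subunit processome, folds and cleaves the precursor around the future 18S RNA, while a separate chain of factors matures the large subunit. Cells that grow and divide usually make more of these factors than cells that have left the cycle, and many of their genes are textbook targets of MYC.

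The libraries were shallow outside ribosomal RNA. Total counts ranged from 3150354 to 32913243, of which 7 ribosomal RNA and similar genes took 88.2% to 98.1%, and 292302, 614465, 3241915 and 617872 counts remained in proliferating 1, proliferating 2, neuron 1 and neuron 2. Most markers of dividing cells and of neurons went against the group labels, so groups are called by their labels only. All 10 genes on a list of dividing-cell markers were detected in every library, and 9 of 10, all but Aurka, were higher in the neuron library of both numbers. Summed as CPM, counts scaled to 1000000 remaining counts, they came to 291 and 617 in libraries labelled proliferating but to 2420 and 3533 in those labelled neuron. The 11 neuronal markers summed to 2624 and 2540 CPM for proliferating cells but only 1706 and 1190 for neurons. Of the 7 with enough counts to test, 0 were higher in the neuron library of both numbers. All but Dcx were lower there in both. Dcx was higher in number 1 and lower in number 2, with log2 ratios, neuron over proliferating, of 0.54 and -0.28. Nefl and Nefm were at 0 in proliferating 1 and neuron 2. The 8 otic progenitor markers summed to 604 to 626 CPM in the proliferating group and 257 to 352 in the neuron group, with Pax8 at 0 throughout. The 8 glial markers summed to 382 to 736 CPM in the proliferating group and 40.5 to 167 in the neuron group, with Sox10 at 0 throughout. Both sums were thus lower in both neuron libraries, without overlap, but not every gene on these lists was. Of those with enough counts to test, Sox2, Olig1 and Olig2 were lower in the neuron library of both numbers. Jag1 and Eya1 were higher there in number 1 alone, and Lfng and Gfap in number 2 alone. Markers of hair cells, mesenchyme and immune cells summed to 12.9 to 31.2, 42.3 to 109, and 0 to 13.7 CPM. The part of these differences in the results below was not tested.

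Counts of the ribosome assembly genes made up a larger share of the neuron library than of the proliferating library with the same number. In number 1 the 42 genes together held 0.371% of the remaining counts (95% Wilson interval 0.349 to 0.393, for counting error only) of the proliferating library and 0.929% (0.919 to 0.940) of the neuron library. In number 2 these shares were 0.935% (0.911 to 0.959) and 1.32% (1.29 to 1.35). The groups still overlapped, because proliferating 2 lay above neuron 1. Much of the share came from Ncl, Npm1 and Wdr3, which held 29.2% and 36.3% of the members' counts in the number 1 libraries and 43.2% and 64.6% in the number 2 libraries, proliferating first. Without these 3 genes, which were set aside after their values were seen, the shares were 0.262% and 0.592% in number 1 and 0.531% and 0.468% in number 2, so that neuron 2 then lay below proliferating 2. In bulk RNA, fewer cells that express a gene and less RNA per cell cannot be told apart.

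With group alone in the model, no member was called different between the groups. All 42 members passed the count filter and were tested among 9009 genes with edgeR's quasi-likelihood test, group alone in the model and Benjamini-Hochberg adjustment over all tested genes. At an adjusted p under 0.05 it called 0 members and 0.0% of all tested genes, and 97 genes, 1 of them a member, had an unadjusted p under 0.05. DESeq2 also called 0 of 23761 genes (190 with an unadjusted p under 0.05), and limma called 0 on log2(RPKM + 0.1) and on log2(RPKM + 1), with 108 and 93 under that p. The fitted log2 fold change, neuron over proliferating, was above 0 for 36 of 42 members, against 4367 of the 9009 tested genes. Its median was 0.45 for the members and -0.03 for all tested genes. The other ribosome assembly genes on a list of 108, of which 103 were tested, had a median of 0.11 with 62 above 0, and 0 were called.

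The picture differed between the replicate numbers. Members ranked alike in libraries that share a number: the Spearman correlation of their levels per length was 0.93 for the pair of number 1 and 0.90 for the pair of number 2. Within a group it was 0.32 (proliferating) and 0.42 (neuron). Each number holds 1 library per group, so within-number ratios have no replicate check. They are given as differences of log2 CPM with the median of all tested genes set to 0. In number 1 all 42 members were higher in the neuron library, against 50.0% of all tested genes, which the centring sets. Their median log2 ratio was 0.98, and 20 of 42 were higher by over 2-fold (13.4% of all tested genes) while 0 were lower by over 2-fold (11.4%). In number 2 the median was -0.04, 20 of 42 were higher (50.0% of all tested genes), 4 were higher by over 2-fold (21.4%) and 6 lower by over 2-fold (18.9%). Thus 20 of 42 members were higher in both numbers (27.4% of all tested genes) and 0 were lower in both (27.4%). Since all 42 were higher in number 1, the first count repeats that of number 2, and the second could only be 0. Exact 95% intervals for counting error lay above 0 for 33 of 42 members in number 1 (15.7% of all tested genes) and below 0 for 0 (20.3%). In number 2 they lay above 0 for 9 (24.3% of all tested genes), below 0 for 10 (19.8%), and included 0 for 23, so both shares there were near those of all genes.

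**Figure D1:**
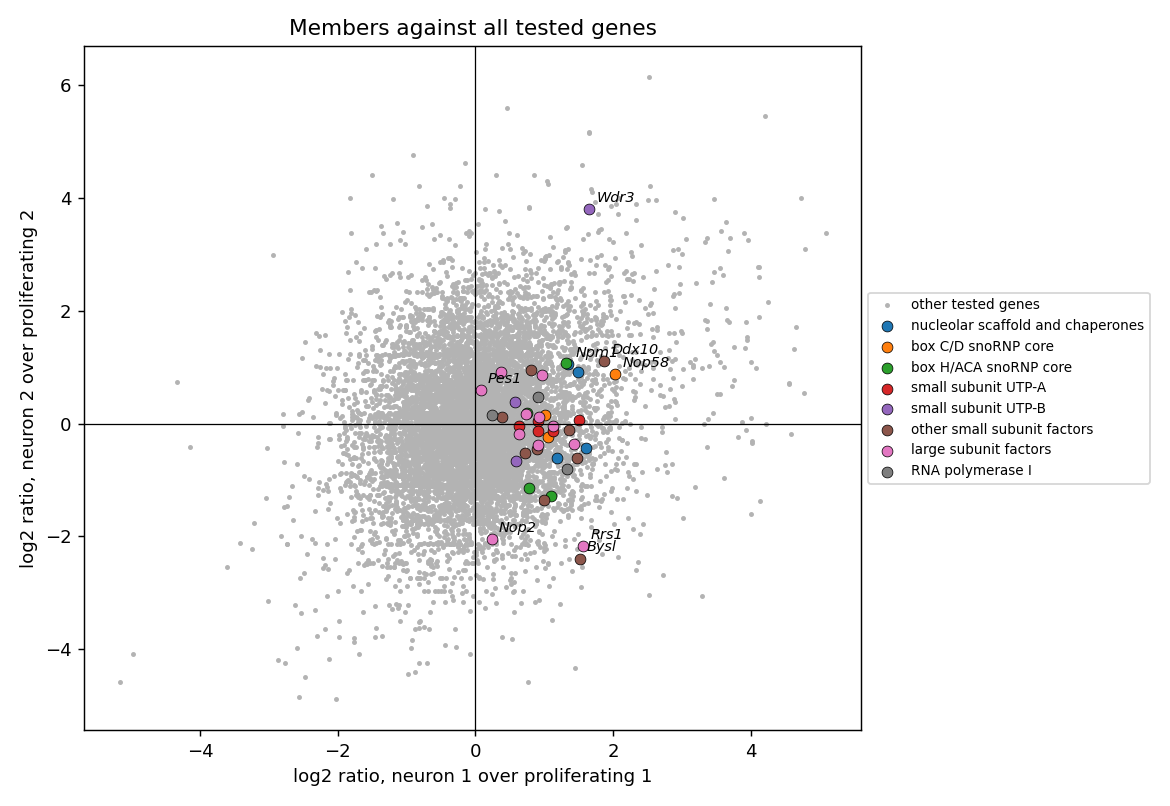
Each point is a gene, with the log2 ratio of neuron 1 to proliferating 1 on the x axis and of neuron 2 to proliferating 2 on the y axis, the median of all tested genes set to 0; coloured points are the 42 members by role and grey points the other tested genes. All 42 members lie right of 0 on the x axis, while on the y axis 20 lie above 0 and 22 below.

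The 103 other ribosome assembly genes had a median ratio of 0.75 in number 1, where 88 (85.4%) were higher, and of -0.42 in number 2, where 33 (32.0%) were higher, each against 50.0% of all tested genes. Of these, 29 (28.2%) were higher in both numbers and 11 (10.7%) lower in both, beside 27.4% of all tested genes in each case and 47.6% and 0 of the members. The difference between these genes and the members was not tested. Of those with the same sign in both numbers and a mean log2 CPM of at least 4, the 3 with the largest positive fitted change were Esf1, Nol8 and Mphosph10. Esf1, a nucleolar pre-rRNA processing protein, had 4, 69, 235 and 240 counts in proliferating 1, proliferating 2, neuron 1 and neuron 2, with log2 ratios of 2.10 and 1.99. Nol8 had 5, 50, 218 and 115 counts and ratios of 1.71 and 1.39. Mphosph10, a component of the U3 particle, had 3, 48, 205 and 101 counts and ratios of 2.28 and 1.26. All 3 had 5 or fewer counts in proliferating 1. In log2 CPM proliferating 2 lay above neuron 1 for each, so the groups overlapped. At the other end, Polr1d, a subunit that RNA polymerases I and III share, had 13, 55, 142 and 14 counts and ratios of -0.19 and -1.72. The RNA polymerase I termination factor Ttf1 had 10, 19, 74 and 13 counts and ratios of -0.71 and -0.33. Taf1b, of the polymerase I promoter factor SL1, had 8, 22, 56 and 16 counts and ratios of -0.78 and -0.24. Counting intervals are not given for these genes. The 3 higher genes had a transcript GC content of 39.0% to 41.4%, below that of every member.

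Levels were set per gene length, as CPM per kilobase, so that genes can be compared. Npm1 was the highest member in every library, at 108 (proliferating 1), 533 (proliferating 2), 309.9 (neuron 1) and 955 CPM per kb (neuron 2). The lowest was Ddx10 at 2.53 in proliferating 1, Polr1c at 2.49 in proliferating 2, Wdr12 at 10.3 in neuron 1 and Rrp12 at 1.67 in neuron 2. The median over members was 21.4 and 52.0 in the number 1 libraries and 29.4 and 22.7 in the number 2 libraries, proliferating first. The number 2 libraries spread the members more widely than the number 1 libraries.

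**Figure D2:**
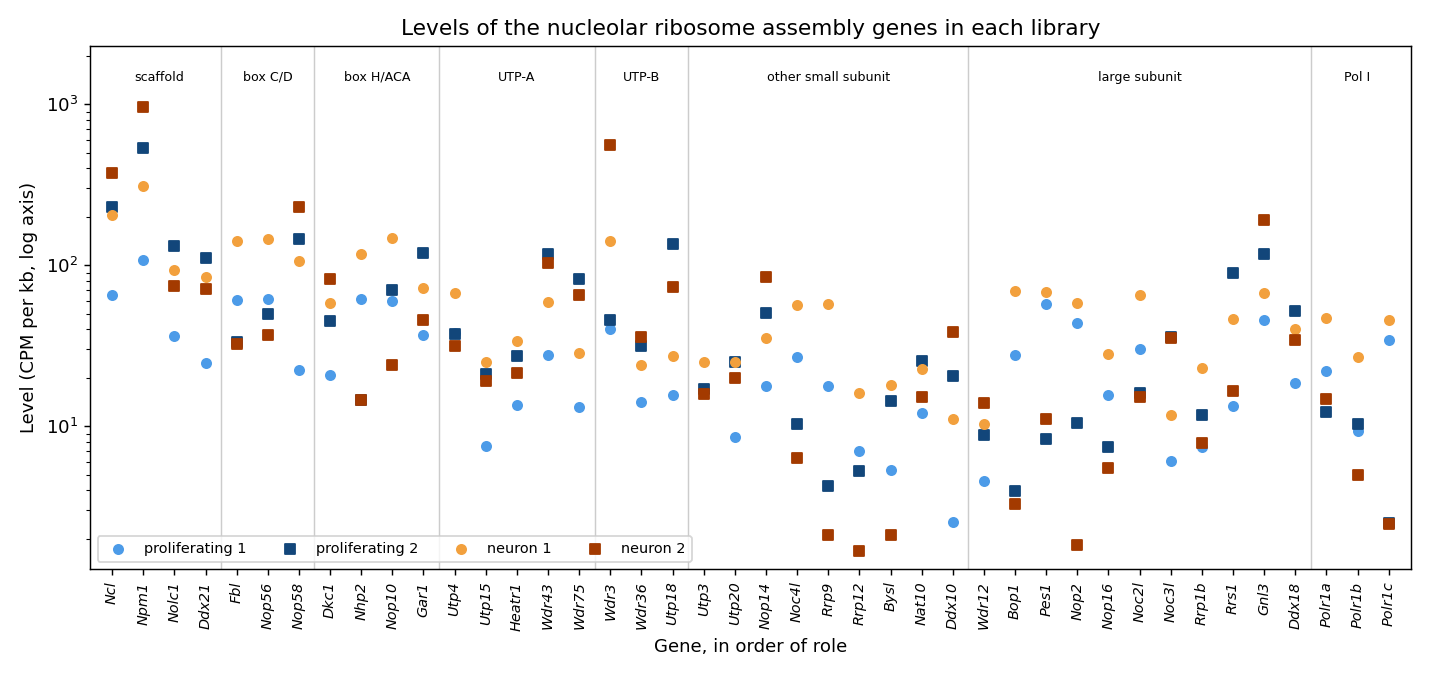
Level of each of the 42 genes (CPM per kilobase, log axis) in the 4 libraries, genes ordered by role along the x axis; blue points are proliferating and orange points neuron libraries, with pale circles for number 1 and dark squares for number 2. Npm1 is highest in all 4 libraries, and Wdr3 in neuron 2 stands at 556 against 39.9, 45.5 and 142 in the others.

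Among the scaffold proteins and chaperones, Ncl and Npm1 were higher in the neuron library of both numbers, while Nolc1 and Ddx21 were higher in number 1 alone. Ncl, nucleolin, an abundant protein that binds the rRNA precursor (chromosome 1, 86344719 to 86359400 in mm10), had 64.8 and 230.1 CPM per kb in the proliferating and 206 and 376 in the neuron libraries. Its proliferating 2 level lay above its neuron 1 level, so the groups overlapped. The log2 ratios were 1.49 (exact 95% interval 1.27 to 1.73) in number 1 and 0.92 (0.81 to 1.02) in number 2, and the fitted log2 fold change was 1.04 (SE 1.29, adjusted p = 1.00 in edgeR). Npm1, nucleophosmin, a histone and ribosome chaperone (chromosome 11, 33152287 to 33163206), had ratios of 1.34 (1.08 to 1.63) and 1.05 (0.95 to 1.16) and a fold change of 1.08 (SE 1.34), again with proliferating 2 above neuron 1. Nolc1, a chaperone of small nucleolar ribonucleoproteins, had ratios of 1.18 and -0.61. Ddx21, an RNA helicase that acts in rRNA transcription and processing, had ratios of 1.60 and -0.44, and for both genes the intervals of the 2 numbers lay on opposite sides of 0.

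The 3 box C/D core genes were all higher by over 2-fold in number 1. Nop58 (chromosome 1, 59684971 to 59719044), a scaffold of the particle, had the largest number 1 ratio of all members. Its levels were 22.4 and 144.6 CPM per kb in the proliferating and 106 and 230.1 in the neuron libraries, with ratios of 2.03 (1.31 to 2.95) and 0.88 (0.61 to 1.15) and a fitted fold change of 1.06 (SE 1.18). Nop56, its partner (chromosome 2, 130274430 to 130279313), had levels of 61.7 and 50.0 in the proliferating and 145 and 36.6 in the neuron libraries. Neuron 1 was the highest library for Nop56 and neuron 2 the lowest. The ratios were 1.06 (0.64 to 1.52) and -0.23 (-0.75 to 0.27), and the fold change was 0.59 (SE 0.99). Fbl, the methyltransferase fibrillarin, had 26, 30, 664 and 29 counts and ratios of 1.02 and 0.15, the second within counting error.

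The 4 box H/ACA genes split in number 2. Dkc1, dyskerin, the pseudouridine synthase (chromosome X, 75095854 to 75109777), had levels of 20.7 and 45.3 CPM per kb in the proliferating and 58.7 and 82.5 in the neuron libraries. Both neuron levels lay above both proliferating levels on this scale, although on the TMM-scaled log2 CPM used for the tests proliferating 2 and neuron 1 were in the reverse order. The ratios of Dkc1 were 1.31 (0.66 to 2.10) and 1.07 (0.68 to 1.48) and the fold change was 1.13 (SE 1.01). Gar1, a core protein of the particle (chromosome 3, 129824912 to 129831396), had levels of 36.6 and 118 in the proliferating and 71.7 and 45.8 in the neuron libraries. Proliferating 2 was its highest library. Its ratios were 0.77 (0.03 to 1.68) and -1.14 (-1.75 to -0.60), with a fold change of -0.49 (SE 1.01). Nop10, a small core subunit, had 13, 32, 355 and 11 counts and ratios of 1.10 and -1.28, and Nhp2, another, had ratios of 0.74 and 0.19.

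Small subunit factors made up 17 members, with a median ratio of 0.91 in number 1 and -0.12 in number 2. The 5 members of UTP-A, the complex that first binds the rRNA precursor, lay close together in number 2, between -0.14 and 0.06. In number 1 they lay between 0.64 and 1.50. Wdr43 (chromosome 17, 71615895 to 71659031) had levels of 27.7 and 117 CPM per kb in the proliferating and 59.0 and 104 in the neuron libraries, with ratios of 0.90 (0.38 to 1.50) and 0.04 (-0.23 to 0.30) and a fold change of 0.21 (SE 1.11). Its number 2 libraries were both above its number 1 libraries. Heatr1 (chromosome 13, 12395027 to 12440289) had levels of 13.6, 27.1, 34.0 and 21.3 in proliferating 1, proliferating 2, neuron 1 and neuron 2, ratios of 1.13 (0.59 to 1.76) and -0.14 (-0.56 to 0.27), and a fold change of 0.37 (SE 0.97). Utp4, Utp15 and Wdr75, the other UTP-A proteins, had number 1 ratios of 0.64, 1.50 and 0.91 and number 2 ratios of -0.04, 0.06 and -0.13.

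Wdr3 had the largest fitted fold change of the members. Wdr3 encodes a WD-repeat protein of UTP-B, a second early complex of the processome (chromosome 3, 100138180 to 100162407, minus strand). It had 40 and 96 counts in the proliferating and 1582 and 1180 in the neuron libraries, or 39.9 and 45.5 against 142 and 556 CPM per kb. Both neuron libraries lay above both proliferating libraries. Its level ranked 10, 16, 5 and 2 among the 42 members in proliferating 1, proliferating 2, neuron 1 and neuron 2. The log2 ratios were 1.65 (1.21 to 2.15) and 3.81 (3.52 to 4.14), the largest of any member in number 2, and the fold change with group alone was 3.22 (SE 1.28, unadjusted p = 0.0262, adjusted p = 1.00 in edgeR). Without neuron 2 the fold change was 1.45 and without neuron 1 it was 3.94. With the replicate number as a block, edgeR called 0.944% of all tested genes and 1 of 42 members, Wdr3, which was higher by 2.77 (SE 0.66, adjusted p = 0.0128). With a correction for GC content as well, the value was 2.72 and the call was lost (adjusted p = 0.0526 in edgeR). Wdr3 was one of 2 members whose groups did not overlap on the scale of the tests, both higher in neuron (9.41% of all tested genes), while 0 were lower (8.5%). The other was Utp3, a processome factor, with 8, 17, 132 and 16 counts and ratios of 0.38 and 0.11, whose counting intervals included 0.

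The genes beside Wdr3 were looked at after its values were seen. Gdap2, whose start overlaps that of Wdr3 on the opposite strand (100162381 to 100206981), had 19, 31, 236 and 135 counts in proliferating 1, proliferating 2, neuron 1 and neuron 2, with log2 ratios of -0.01 in number 1 and 2.29 in number 2. Man1a2, the Golgi mannosidase gene further along (100562208 to 100685503), had 37, 144, 786 and 517 counts and ratios of 0.76 and 2.04. Spag17, a cilium gene whose end overlaps that of Wdr3 on the opposite strand (99885406 to 100143322), had 2, 2, 16 and 18 counts. Tent5c, the only other protein-coding gene within 500000 bases, had 1, 2, 23 and 2. Gdap2, Man1a2 and Spag17 thus had more counts in neuron 2 than in proliferating 2, as Wdr3 did, from similar totals of remaining counts. Exons of Wdr3 overlap those of Gdap2 and Spag17, and whether counting used strand is not given in the sources used here. Both neighbours had fewer counts than Wdr3 in every library. The part of reads from the overlaps in the counts of Wdr3 was not tested.

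The other UTP-B genes had number 2 ratios below that of Wdr3. Utp18 (chromosome 11, 93859243 to 93885766) had levels of 15.7 and 135 CPM per kb in the proliferating and 27.2 and 73.1 in the neuron libraries, both number 2 libraries above both number 1 libraries. Its ratios were 0.60 (-0.22 to 1.59) and -0.67 (-1.01 to -0.35), with a fold change of -0.53 (SE 1.19). Wdr36 had ratios of 0.57 and 0.39, both within counting error.

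Promoter sequences are shown for Wdr3, the member with the largest fold change, and for Nop2 and Utp18, which hold an E-box, the site that MYC and MAX bind. The sequences are from RefSeq on GRCm38.p6, the build also called mm10, 100 bases before to 20 after the start, read 5′ to 3′ along the gene. Capitals mark the E-box letters CACGTG and the letters CCGGAAG, the core of sites bound by ETS factors, on either strand. The locations are chr3:100162388-100162507 on the minus strand for Wdr3, chr6:125131783-125131902 on the plus strand for Nop2 and chr11:93885747-93885866 on the minus strand for Utp18.
Wdr3: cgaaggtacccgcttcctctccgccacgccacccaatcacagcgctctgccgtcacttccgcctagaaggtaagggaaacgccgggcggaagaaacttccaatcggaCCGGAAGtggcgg
Nop2: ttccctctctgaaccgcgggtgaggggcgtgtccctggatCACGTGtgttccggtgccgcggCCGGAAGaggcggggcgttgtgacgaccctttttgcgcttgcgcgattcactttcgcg
Utp18: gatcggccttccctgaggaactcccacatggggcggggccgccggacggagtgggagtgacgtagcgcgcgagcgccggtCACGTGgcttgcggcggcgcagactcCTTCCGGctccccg

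In windows of 250 bases before to 50 after the start, 36 of the 42 members had a promoter in the table. CACGTG was found on either strand in 6 of these 36 (16.7%), against 8.09% of 27025 genes of all kinds, and CCGGAAG in 13 (36.1%), against 9.93%. The members with CACGTG were Nop2, Pes1, Utp4, Utp18, Utp20 and Wdr43. Their median ratios were 0.62 in number 1 and -0.08 in number 2, and those of the 13 members with CCGGAAG were 0.74 and 0.11. The 20 members with neither had medians of 1.08 and -0.21. A match of letters is a description of the sequence and not a measured binding site.

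The remaining 9 small subunit factors had a median ratio of 1.00 in number 1 and -0.46 in number 2. Utp20, a very large processome protein (chromosome 10, 88746607 to 88826804), had levels of 8.52, 24.9, 24.9 and 19.8 CPM per kb in proliferating 1, proliferating 2, neuron 1 and neuron 2. Proliferating 1 was the low library. Its ratios were 1.35 (0.76 to 2.06) and -0.12 (-0.50 to 0.26), with a fold change of 0.37 (SE 1.00). Nat10, an RNA acetyltransferase (chromosome 2, 103721256 to 103761270), had levels of 12.0, 25.5, 22.6 and 15.3, ratios of 0.73 (0.12 to 1.43) and -0.52 (-1.02 to -0.05), and a fold change of -0.05 (SE 0.97). Bysl, bystin, needed for late small subunit maturation (chromosome 17, 47599331 to 47611492), had the lowest number 2 ratio of all members. It had 6, 34, 226 and 5 counts, ratios of 1.52 (0.45 to 3.05) and -2.40 (-4.27 to -1.20), and a fold change of -0.20 (SE 1.18), so its numbers went in opposite directions beyond counting error.

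Ddx10, an RNA helicase, and Nop14, a processome factor, were higher in both numbers, with ratios of 1.87 and 1.11 for Ddx10 and 0.80 and 0.94 for Nop14. Rrp12, an export factor, had 16, 25, 406 and 8 counts and ratios of 1.00 and -1.36. Rrp9, a protein of the U3 particle, and Noc4l, a partner of Nop14, had number 1 ratios of 1.47 and 0.89. Their number 2 ratios of -0.61 and -0.46 rested on 4 and 2 counts for Rrp9 and 13 and 8 for Noc4l and were within counting error.

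The 11 large subunit factors had a median ratio of 0.91 in number 1 and -0.05 in number 2. Gnl3, nucleostemin, a nucleolar GTPase of stem and progenitor cells (chromosome 14, 31012433 to 31019152), had levels of 45.9 and 117 CPM per kb in the proliferating and 67.1 and 190.2 in the neuron libraries. Proliferating 2 again lay above neuron 1. Its ratios were 0.37 (-0.20 to 1.01) and 0.91 (0.61 to 1.23), with a fold change of 0.77 (SE 1.09). Noc2l (chromosome 4, 156236010 to 156247616), of an early large subunit complex, had levels of 30.3, 16.1, 65.5 and 15.2, ratios of 0.93 (0.44 to 1.48) and 0.12 (-0.57 to 0.82), and a fold change of 0.71 (SE 1.00). Noc3l, its partner, had ratios of 0.74 and 0.18, both within counting error.

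Bop1, Pes1 and Wdr12 encode the 3 proteins of the PeBoW complex, which acts in processing of the large subunit RNA. Their counting intervals overlapped in both numbers. Pes1 (chromosome 11, 3963975 to 3980004) had the lowest number 1 ratio of all members, at 0.08 (-0.34 to 0.53). It had 49, 15, 647 and 20 counts, a number 2 ratio of 0.59 (-0.42 to 1.69) and a fold change of 0.22 (SE 1.12). Bop1 had 20, 6, 551 and 5 counts and ratios of 1.12 and -0.05. Wdr12 had 12, 49, 300 and 78 counts and ratios of 0.97 and 0.86, both above counting error.

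Of the rest, Nop2, an rRNA methyltransferase, had 34, 17, 501 and 3 counts and ratios of 0.23 and -2.05. Rrs1, which helps bring 5S RNA into the particle, had 8, 112, 307 and 21 counts and ratios of 1.56 and -2.17. The interval of Rrs1 lay above 0 in number 1 and below 0 in number 2, while that of Nop2 excluded 0 in number 2 alone. Rrp1b and the helicase Ddx18 had ratios of 1.43 and 0.91 in number 1 and -0.35 and -0.39 in number 2, and Nop16 had 0.64 and -0.19.

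The 3 RNA polymerase I genes were higher in number 1 with ratios of 0.91, 1.33 and 0.24 for Polr1a, Polr1b and Polr1c. Polr1a, the largest subunit (chromosome 6, 71909053 to 71984935), had levels of 22.1 and 12.3 CPM per kb in the proliferating and 47.1 and 14.8 in the neuron libraries, with a number 2 ratio of 0.47 (-0.10 to 1.06) and a fold change of 0.78 (SE 0.97). Polr1b, the second largest (chromosome 2, 129100995 to 129126594), had levels of 9.35, 10.4, 27.0 and 5.01, a number 2 ratio of -0.81 (-1.77 to 0.04) and a fold change of 0.54 (SE 1.03). Neuron 1 was the highest library for both genes. Polr1c, which RNA polymerases I and III share, had 2 counts in each number 2 library, so its ratio there could not be resolved (0.15, -3.58 to 3.99). Myc, which is no member, had 305, 653, 11498 and 667 counts, ratios of 1.59 and 0.23 and a fold change of 1.02 (SE 1.18), with neuron 1 the highest library.

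**Figure D3:**
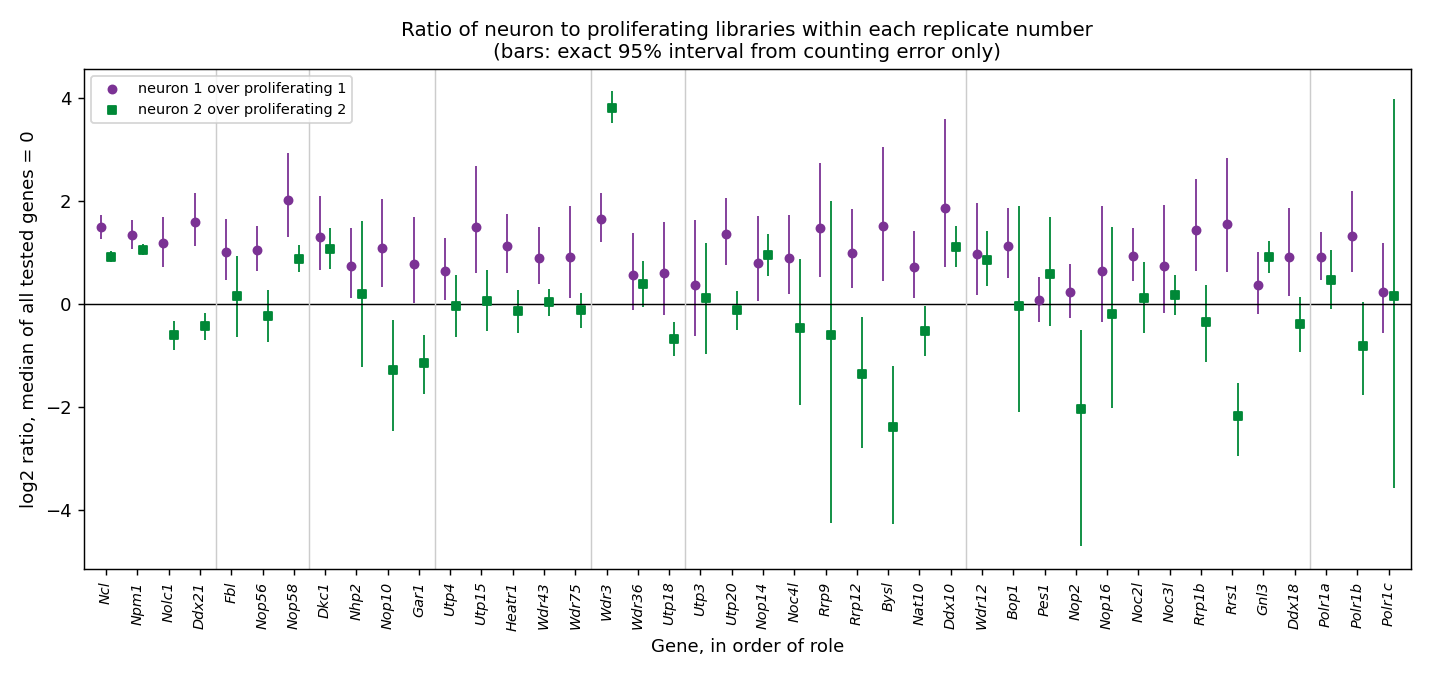
log2 ratio of neuron to proliferating library for each of the 42 genes, ordered by role, in number 1 (purple circles) and number 2 (green squares), with the median of all tested genes at 0 and bars for the exact 95% interval of counting error alone. Wdr3 is at 3.81 in number 2, and Bysl, Rrs1 and Nop2 are at -2.40, -2.17 and -2.05 there although all 3 are above 0 in number 1.

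GC content of the transcripts went with the difference between the numbers. Among the 21 members with the lower GC content (42.1% to 48.4%), 21 were higher in proliferating 2 than in proliferating 1 and 18 higher in neuron 2 than in neuron 1. Among the 21 with the higher GC content (50.1% to 58.2%) the counts were 8 and 2. Across the 42 members the Spearman correlation of GC content with the number 2 minus number 1 difference was -0.71 in the proliferating and -0.85 in the neuron libraries, against -0.64 and -0.82 across all tested genes with a GC value. With the neuron to proliferating ratio it was -0.10 in number 1 and -0.47 in number 2 across members, and -0.31 and -0.42 across all tested genes. The lower-GC members had median ratios of 1.10 and 0.18 in the numbers and the higher-GC members 0.93 and -0.35. These are correlations across genes of the same libraries, and depth was also unequal, with 13 of 42 members under 10 counts in at least 1 library. After a GC correction in the fit with the replicate block, the median fold change of the members was 0.44, against 0.47 without it. Single members moved more, and in both directions. The correction took Ncl from 1.21 to 0.70, Npm1 from 1.20 to 0.51 and Nop58 from 1.42 to 0.79. It took Nolc1 from 0.26 to 0.55 and Fbl from 0.61 to 0.97.

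**Figure D4:**
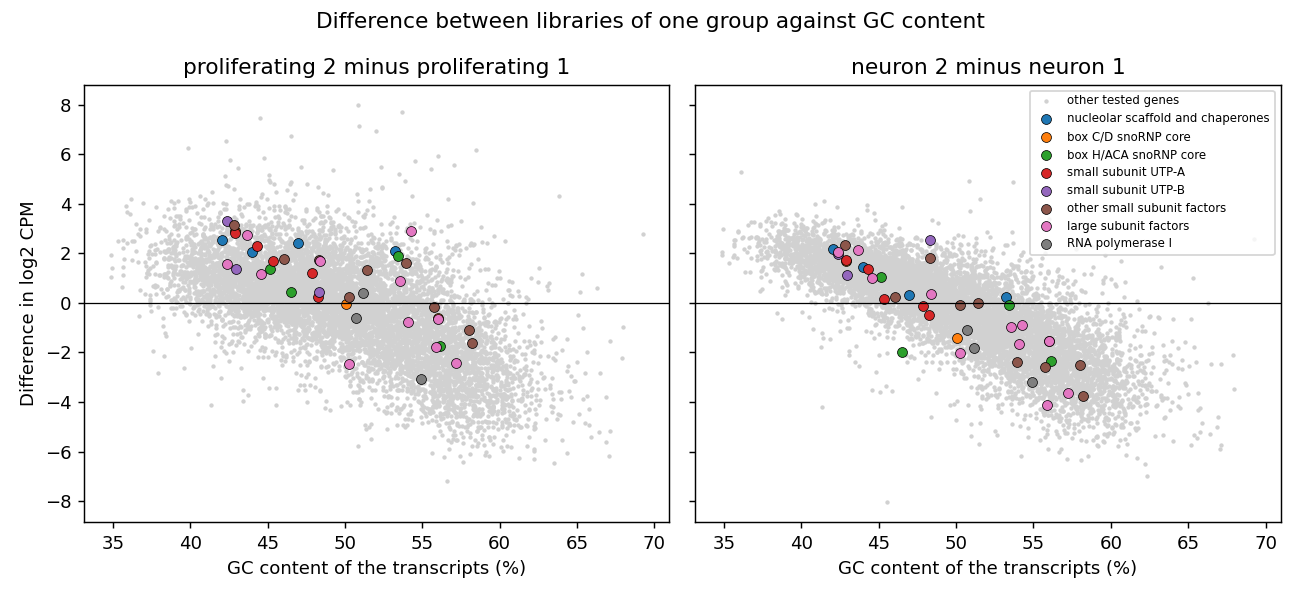
Difference in log2 CPM between the 2 libraries of one group (left, proliferating 2 minus proliferating 1; right, neuron 2 minus neuron 1) against the GC content of the transcripts in percent; coloured points are the 42 members by role and grey points the other tested genes. Members fall with GC content in both panels, with Spearman correlations of -0.71 and -0.85 across the members.

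Hosting of small nucleolar RNA genes is a feature that the choice of members did not use. Introns of ribosome assembly genes often carry such RNAs, and in the annotation Ncl, Nop56, Nop58, Dkc1, Wdr43 and Gnl3 hold 1 to 5 of them within their bounds on their own strand. These 6 hosts had a median ratio of 1.18 in number 1 and 0.90 in number 2, where all but Nop56 were above 0. The other 36 members had medians of 0.95 and -0.12. The hosts had a GC content of 42.4% to 50.1%, toward the low end of the members' range of 42.1% to 58.2%, and the part of GC content in this difference was not tested. Hosted RNAs that lie over annotated exons and have counts of their own had at most 7 in any library (Snora75, Snord57, Snord19, Snord69 and Gm24148). The part of reads from hosted RNAs in the counts of their hosts was not tested.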

How the data were processed

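RNA of 4 libraries was analysed, 2 labelled proliferating and 2 labelled neuron. Per the labels' protocols, DNase-treated total RNA was depleted of ribosomal RNA and made into stranded libraries. The submitters' processing notes name the build mm10 and the tools DESeq2, featureCounts, HISAT2 and SAMtools; versions, annotation and strand setting are not given in the sources used here. The authors deposited raw counts per gene and RPKM values, 1 file of each per library. The gene length implied by counts and RPKM set the levels per kilobase; it matched between libraries for 6830 of 6830 genes checked, to a relative 0.001.

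Here, 7 ribosomal RNA and similar genes (mt-Rnr1, mt-Rnr2, AY036118, Gm15564, Mir6236, Lars2 and Rn18s-rs5) were set aside first. The test of the counts used edgeR 4.0.16 under R 4.3.3 (quasi-likelihood test, TMM scaling, filterByExpr, 9009 genes, Benjamini-Hochberg adjustment, threshold 0.05). Log2 CPM used a prior count of 2. Limma 3.58.1 and DESeq2 1.42.0 were alternatives. A GC correction subtracted, per library, a spline with 5 degrees of freedom. A count of 0 allows, at 3 counts, up to 10.3, 4.88, 0.925 and 4.86 CPM. Positions, GC content and overlaps are from GENCODE M21 on mm10, and 17 members share exonic positions with a gene on the opposite strand. The members and lists were chosen with earlier results of these data known. Values in every library were given for the 2 most abundant members of each role, members called in a fit and the extremes of each ratio; others were named after their values were seen.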

Additional observations from a re-analysis of the deposited data

How the results depend on the processing

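The counts of called genes rest on how the replicate number was treated. With the replicate block, edgeR called 85 genes and 1 member (Wdr3, 2.77), and with the block and a GC correction 33 genes and 0 members, against 0 and 0 with group alone; every other setting also gave 0 and 0, and the other ribosome assembly genes had 0 called throughout. Same-numbered libraries deviated together (r = 0.74 across genes), but 2 pairs and labels without a stated batch do not show that the numbers pair samples. The median fold change of the members was 1.48 on log2(RPKM + 0.1), where that of all genes was 0.81, and 0.06 to 1.14 when 1 library was left out. Without proliferating 1 the members' median was 0.26, below the 0.39 of all tested genes. Without proliferating 2, neuron 1 and neuron 2 it was 1.14, 0.06 and 0.42, above the 0.11, -0.21 and -0.099 of all tested genes. The within-number medians kept to 0.95 to 1.04 in number 1. In number 2 they lay between -0.07 and 0.39. With at least 10 counts in every library, 29 members were left, of which 29 were higher in number 1 and 15 in number 2. Ratios were there centred anew on the median of the genes past that filter. The centring makes about as many of those genes higher as lower, and 15 of 29 is near that share.

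For 18 members given with a fold change, the sign changed in 36 of 251 values, each of 1 member in 1 other setting. In fits of all 4 libraries none of the changed values was called. The cause was not tested. Gar1, Utp18, Nat10 and Bysl went to 0.94, 1.08, 1.14 and 0.69 on log2(RPKM + 0.1), where the median of all tested genes was 0.81. On log2(RPKM + 1) these members went to 0.78, 0.82, 0.66 and 0.47, where the median of all tested genes was 0.34. These RPKM values were not centred on that median, so a value above 0 there does not place a gene above most others. Nat10 and Bysl went to 0.0099 and 0.042 with library totals, and Nat10 to 0.011 with rRNA genes kept, 0.0075 with any gene counted, 0.13 with at least 10 counts everywhere and 0.088 with the replicate block. With the block and GC correction, Gar1, Wdr43, Nat10 and Gnl3 were at 0.070, -0.021, 0.29 and -0.0088. Leaving out 1 library gave ranges of -0.43 to 2.89 for Npm1, -0.054 to 3.21 for Nop58, -0.35 to 1.12 for Nop56, -1.13 to 0.82 for Gar1, -0.67 to 1.83 for Wdr43, -0.098 to 1.16 for Heatr1, -1.88 to 1.99 for Utp18, -0.25 to 1.56 for Utp20, -0.54 to 0.80 for Nat10, -0.63 to 1.82 for Gnl3, -0.33 to 1.27 for Noc2l, -0.73 to 1.16 for Polr1b, -1.24 to 2.00 for Pes1 and -2.00 to 0.92 for Bysl.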
